A study of Mus musculus with 4 samples.

Results

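The proteasome genes examined here are the protein-coding mouse genes whose symbols begin with Psma, Psmb, Psmc, Psmd, Psme, Psmf or Psmg. This rule gave 51 of the 21887 protein-coding genes placed on chromosomes 1 to 19, X and Y in the RefSeq table for GRCm38.p6. They comprised 8 alpha and 7 standard beta subunits of the core particle, 4 inducible or tissue-specific beta subunits, 6 ATPases and 3 other subunits of the base, 8 lid subunits, 5 activator genes, 1 inhibitor and 7 assembly factors. The remaining 2, Psmc3ip and Psme3ip1, carry the prefix only because their products bind a proteasome protein. They form a group of their own below, but counts and shares of proteasome genes include them unless stated otherwise. A gene was counted as bound where a deposited peak or region lay within 1 kb of either end of its annotated span.

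Occupancy of the transcription factor Deaf1 was mapped by ChIP-seq, in which chromatin fragments recovered with an antibody are sequenced, in C2C12, a mouse myoblast line, myoblasts being the dividing precursors of muscle fibres. There were 2 ChIP libraries made with an anti-Deaf1 antibody and 2 input libraries without antibody, all from cells grown in DMEM with serum, and the labels name no treatment or genotype. The labels do not say whether replicates came from separate cultures, so the spread between them may be technical. Peak lists of the ChIP libraries and the authors' combined list were analysed. They hold no expression values, and the cell type label was not checked against markers.

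The proteasome degrades proteins tagged with ubiquitin. Its barrel-shaped core is built from rings of alpha and beta subunits, some beta subunits carry the protease sites, and a regulatory particle made of a base and a lid caps the barrel. The ATPases of the base unfold substrates and feed them into the barrel, the lid removes ubiquitin, and dedicated assembly factors join the subunits in order. In muscle this system works beside autophagy, which is the process named in the title of the series, and breaks down much of the contractile protein lost in atrophy. Deaf1 is known to bind DNA that holds the letters TTCG.

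A peak's summit is the base where most ChIP fragments stack, and the number stacked there is its pileup. Replicate 1 had 1860 peaks and replicate 2 had 3126. Fold enrichment is the ratio, from the authors' peak caller, of the summit's ChIP signal to the background expected there. Whether that background was taken from the input libraries is not stated in the sources used here. The median fold over the list was 6.87 in replicate 1 and 6.41 in replicate 2. The lowest background at any summit was 1.80 fragments in replicate 1 and 2.09 in replicate 2. The combined list had 1550 regions, each with a global irreproducible discovery rate (IDR). It is the estimated share of irreproducible regions among all those ranked at least as well, not the region's own chance. The list runs up to an IDR of 0.51, and 608 regions had an IDR score of at least 540, which stands for an IDR of at most 0.05.

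Sequences just before the start of 7 bound genes are shown first, because the summits lay there or within a few bases of the start. They are the 120 bases before the listed start from RefSeq (GRCm38.p6), 5′ to 3′ on the gene's strand, and none of them overlaps an annotated gene. Capitals mark TTCG (or CGAA, its reverse complement) and CCGGAAG (or CTTCCGG), a sequence recognised by ETS transcription factors. Psmc1, Psmc4, Psmg1 and Psmg3 had a combined region, whereas Psmb4, Psmd6 and Psmd11 had a peak of replicate 2 only.
Psmc1 (chr12:100110082-100110201, plus strand): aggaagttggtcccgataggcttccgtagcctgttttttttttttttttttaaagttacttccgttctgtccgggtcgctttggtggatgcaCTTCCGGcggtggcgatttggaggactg
Psmc4 (chr7:28050093-28050212, minus strand): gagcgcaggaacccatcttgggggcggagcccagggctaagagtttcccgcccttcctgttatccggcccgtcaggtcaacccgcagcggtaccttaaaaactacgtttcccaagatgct
Psmg1 (chr16:95990961-95991080, minus strand): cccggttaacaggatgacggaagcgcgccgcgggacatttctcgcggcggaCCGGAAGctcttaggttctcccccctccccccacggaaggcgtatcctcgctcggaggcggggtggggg
Psmg3 (chr5:139826895-139827014, minus strand): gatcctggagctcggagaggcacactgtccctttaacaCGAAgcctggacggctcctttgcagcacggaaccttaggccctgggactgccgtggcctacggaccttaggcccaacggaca
Psmb4 (chr3:94886959-94887078, minus strand): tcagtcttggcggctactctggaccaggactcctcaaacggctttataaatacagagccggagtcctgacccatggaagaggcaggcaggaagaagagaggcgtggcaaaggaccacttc
Psmd6 (chr14:14120946-14121065, minus strand): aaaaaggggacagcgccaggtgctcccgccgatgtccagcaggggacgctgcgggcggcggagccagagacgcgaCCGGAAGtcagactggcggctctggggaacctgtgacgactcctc
Psmd11 (chr11:80428495-80428614, plus strand): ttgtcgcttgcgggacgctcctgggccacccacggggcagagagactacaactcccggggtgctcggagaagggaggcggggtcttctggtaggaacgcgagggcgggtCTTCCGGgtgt

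Deaf1 regions lay at 15 of the 51 genes (29.4%) in the combined list, where 6.99% of all protein-coding genes had one. In replicate 1 alone 15 genes (29.4%) had a peak, against 7.53% of all genes. In replicate 2 alone 24 genes (47.1%) had one, against 11.2% of all genes. Without Psmc3ip and Psme3ip1, which are no proteasome parts, 13 of 49 genes (26.5%) had a combined region and 22 (44.9%) a peak of replicate 2. The genes were chosen with earlier results of these data known, so these shares are given as descriptions with no test.

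By part of the particle, a combined region was found at 3 of 6 ATPase genes (Psmc1, Psmc2, Psmc4), 3 of 5 activator genes (Psme1, Psme2, Psme3), 2 of 7 standard beta genes (Psmb2, Psmb7), 2 of 8 lid genes (Psmd7, Psmd13), 2 of 7 assembly factor genes (Psmg1, Psmg3) and 1 of 8 alpha genes (Psma5). The 3 non-ATPase base genes, the 4 inducible or tissue-specific beta genes and the inhibitor gene Psmf1 had none within 1 kb of an end. Replicate 2 added 2 ATPase genes (Psmc3, Psmc5), 3 lid genes (Psmd6, Psmd8, Psmd11), 2 standard beta genes (Psmb1, Psmb4), the base gene Psmd2 and the assembly factor Psmd9. ATPase genes thus reached 5 of 6 and lid genes 5 of 8 in that library, while the alpha genes remained at 1 of 8. With 1 to 8 genes a group, differences between groups were not tested.

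**Figure D1:**
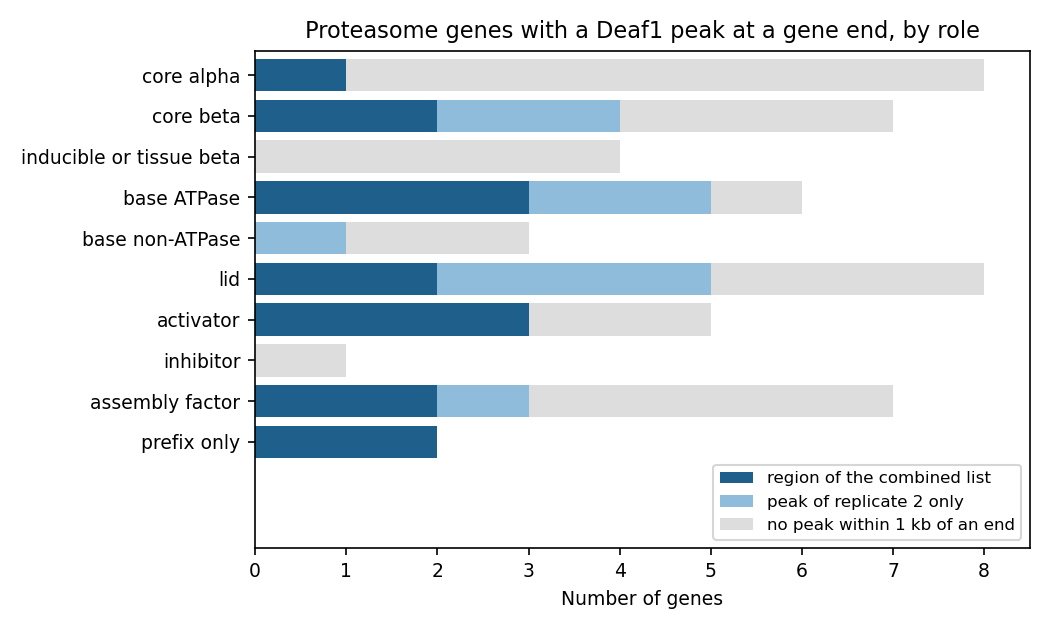
Number of proteasome genes (horizontal axis) in each functional group, split into genes with a region of the combined list, genes with a peak of replicate 2 only and genes with no peak within 1 kb of an end. ATPase genes had a peak in 5 of 6 cases in replicate 2, and alpha genes in 1 of 8.

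Among the core particle genes, the alpha subunit gene Psma5 had the only combined region of its group at a gene end, at chr3:108256964-108257198, inside the gene's span. Its fold enrichment was 6.05 in replicate 1, with 21 fragments at the summit (95% exact Poisson interval 13.0 to 32.1), and 3.99 in replicate 2, with 30 fragments (20.2 to 42.8). The fold was lower in replicate 2 although more fragments lay there, since the background was 6.77 fragments against 2.64. Its IDR was 0.513, the highest value of the list, which 377 regions share.

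Psmb2 encodes a beta subunit without protease activity. Its region, chr4:126677539-126677675, spanned the lower-coordinate end of the gene and had a fold of 7.50 in replicate 1 (20 fragments) and 10.0 in replicate 2 (30 fragments). Both libraries thus placed it above their list's median, and its IDR was 0.0427. Psmb7 encodes the beta subunit with trypsin-like activity. Its region at chr2:38643888-38644006 had the largest fold of the bound gene ends in replicate 1, 12.8 with 35 fragments (24.4 to 48.7), but 5.00 in replicate 2 with 33 fragments (22.7 to 46.3). The pileups were alike and the background was not, at 1.80 fragments in replicate 1 and 5.80 in replicate 2. The mean fold at Psmb7 was therefore 8.92 ± 5.55 (SD, n = 2), the widest spread of the 15.

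The 3 ATPase genes with a combined region had folds of similar size. At Psmc1 (chr12:100110068-100110202) the fold was 8.92 in replicate 1 and 8.20 in replicate 2, a mean of 8.56 ± 0.51 (SD, n = 2), with 24 and 31 fragments and an IDR of 0.0389. At Psmc2 (chr5:21785179-21785376) it was 9.28 and 6.66, a mean of 7.97 ± 1.85 (SD, n = 2), with 25 fragments in each library. At Psmc4 (chr7:28050014-28050150) it was 6.07 and 9.07, a mean of 7.57 ± 2.12 (SD, n = 2), with 16 and 27 fragments. The means of these ATPase genes differed by less than the larger SDs. The region at Psmc2 was shared with Dnajc2, a chaperone gene whose end lay within 1 kb of it.

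Of the lid genes, Psmd7 and Psmd13 were bound in both libraries. The region at Psmd7 (chr8:107588397-107588562) had folds of 9.99 and 8.46, a mean of 9.23 ± 1.08 (SD, n = 2), the highest mean of the bound gene ends, with 27 and 32 fragments and an IDR of 0.038. The region at Psmd13 (chr7:140882312-140882417) had folds of 6.78 and 7.69, a mean of 7.24 ± 0.64 (SD, n = 2), with 18 and 29 fragments and an IDR of 0.0912. It was shared with the end of Sirt3, which encodes a mitochondrial deacetylase.

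The activator genes Psme1 and Psme2 encode the subunits of the interferon-inducible cap of the proteasome, and Psme3 encodes a related nuclear cap. Psme1 (chr14:55578209-55578438) had folds of 6.07 and 7.77, with 16 fragments (9.15 to 26.0) and 23 fragments (14.6 to 34.5). The region counted for Psme2 (chr14:55591514-55591784) had folds of 7.85 and 9.71 and an IDR of 0.0363, but its replicate 2 summit lay 605 bp from the end of Psme2 and 7 bp from the end of Rnf31, a ubiquitin ligase gene. Psme3 (chr11:101315887-101316273) had the widest region, 387 bp, and the lowest mean fold of the 15, 4.40 ± 0.60 (SD, n = 2). Its pileups of 25 and 26 fragments were no lower than those of Psmc2, whereas its background was 4.39 and 5.80 fragments.

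The assembly factors Psmg1 and Psmg3 help to build the alpha ring, each with a partner (Psmg2 and Psmg4) that had no peak. Psmg3 (chr5:139826847-139826962) had folds of 8.21 and 8.22, the closest pair of folds of the 15, and the lowest IDR of these gene ends, 0.0302. Its pileups were less alike, at 22 fragments (13.8 to 33.3) and 39 fragments (27.7 to 53.3). The background was 1.80 fragments in replicate 1 and 3.87 in replicate 2. Psmg1 (chr16:95990975-95991086) had folds of 3.71 and 6.16, with 19 and 29 fragments and an IDR of 0.513. Of the base assembly factors, Psmd5 and Psmd10 had no peak, and Psmd9 had a peak of replicate 2 only.

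The genes with the prefix alone also had a region in both libraries. Psmc3ip encodes a factor of meiotic recombination, and its region (chr11:101095379-101095523) had folds of 3.49 and 8.27 over backgrounds of 7.03 and 3.71 fragments. Psme3ip1 encodes a protein that binds the product of Psme3, and its region (chr8:94601630-94601975) had folds of 4.95 and 10.4. That region lay within 1 kb of ends of Rspry1 and LOC115486880, and of all gene ends that of LOC115486880 was nearest, 81 bp from the replicate 2 summit. A start of Psme3ip1 listed by RefSeq was closer, with the summits 4 bp before it in replicate 1 and 29 bp after it in replicate 2.

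**Figure D2:**
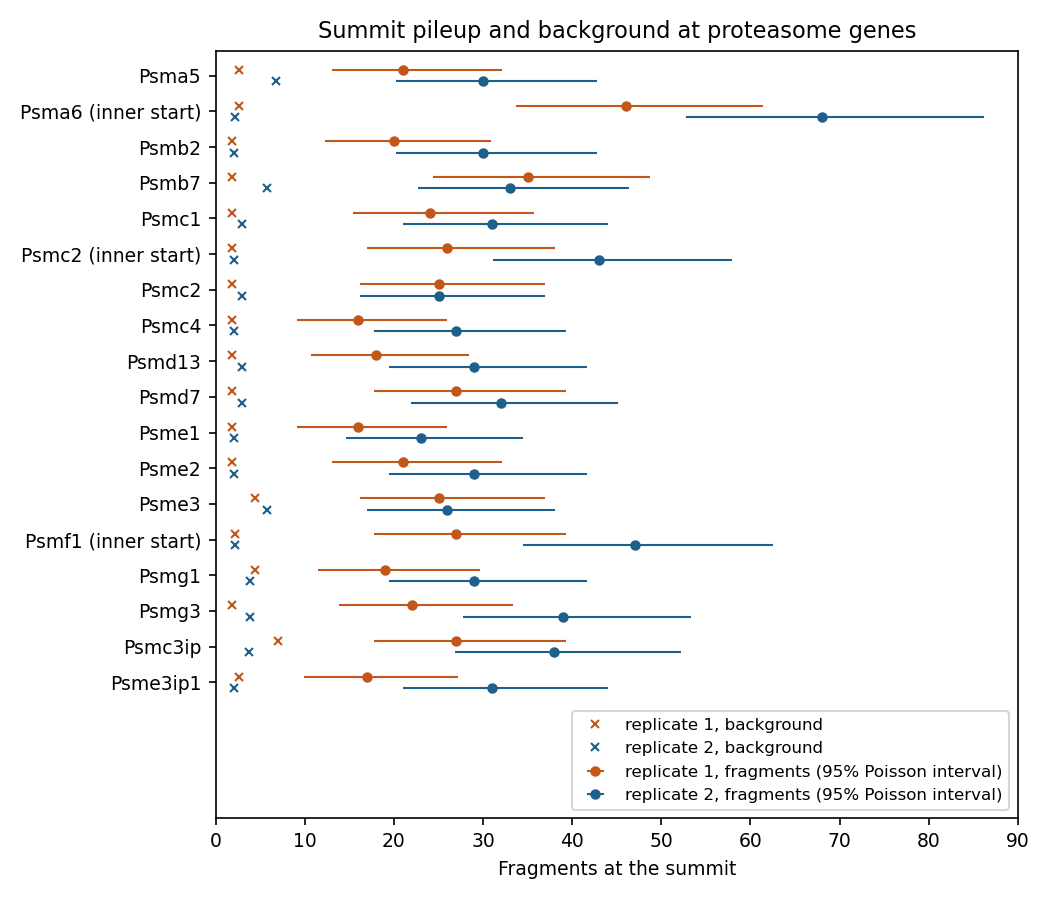
Fragments at the summit (horizontal axis) in replicates 1 and 2 for each combined region at a proteasome gene end or inner start, with 95% exact Poisson intervals, and the background expected there (crosses). The intervals of the replicates overlap at all 15 gene ends, with no matching share over all regions given. Psma6 has the highest pileups, 46 and 68 fragments.

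Across the 15 gene ends the median fold was 6.78 in replicate 1 and 8.20 in replicate 2, beside 7.51 and 8.42 over all 1249 combined regions at ends of protein-coding genes. Against the median of each library's whole peak list (6.87 and 6.41), fold was lower at 8 genes in replicate 1 and at 4 in replicate 2. All combined regions at gene ends also had a higher median in replicate 2 than that whole list (8.42 against 6.41). Only Psmb7 was in the top 10% of either whole list. Pileups ranged from 16 to 35 fragments in replicate 1 and from 23 to 39 in replicate 2, and at each of the 15 the replicates' intervals overlapped. Intervals cover counting error only. The matching share over all combined regions is not given here, so the overlap is a description only. Fold was higher in replicate 2 at 9 genes and lower at 6, with a median ratio of 1.13, the same as over all combined regions. Each of the 15 regions held 1 peak per library, and the summits of the libraries lay a median of 9 bp apart. At gene ends an IDR score of at least 540 was reached at 5 of the 51 genes (9.8%, against 3.13% of all genes). They were Psmb2, Psmc1, Psmd7, Psme2 and Psmg3. None of the 15 gene ends reached 830 (an IDR of at most 0.01), which 0.393% of all genes did. Regions at inner starts, described below, are outside these counts. Their scores were 857 at Psma6, 737 at Psmc2 and 703 at Psmf1.

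**Figure D3:**
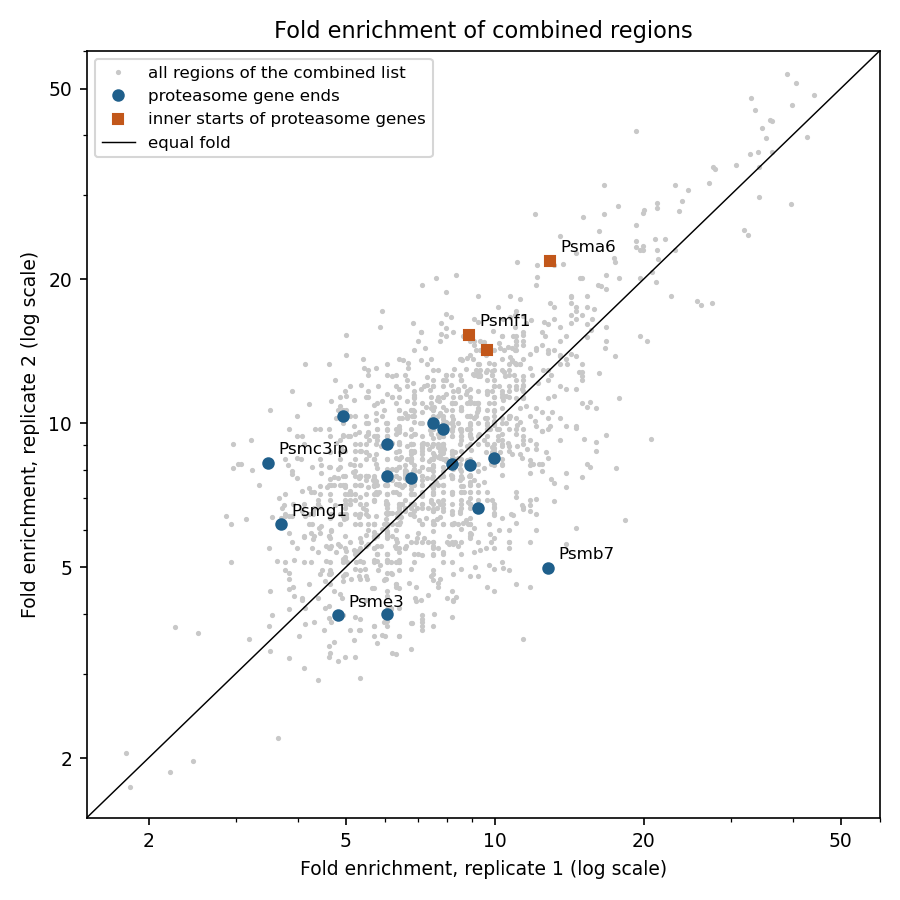
Fold enrichment in replicate 1 (horizontal, log scale) and replicate 2 (vertical, log scale) of all 1550 combined regions (grey), of those at proteasome gene ends (circles) and at inner starts of proteasome genes (squares), with the line of equal fold. The proteasome gene ends lie inside the cloud of other regions, with Psmb7 far below the line at 12.8 and 5.00, and Psma6 stands out at 12.9 and 21.9.

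The strongest region at any proteasome gene was missed by the count of gene ends. Psma6, an alpha subunit gene, has a long annotated span, and a region at chr12:55398682-55398890 lay 14587 bp from its nearer end by the replicate 2 summit but 16 bp before a second start listed by RefSeq. Its fold was 12.9 in replicate 1, with 46 fragments (33.7 to 61.4), and 21.9 in replicate 2, with 68 fragments (52.8 to 86.2), so that the mean was 17.4 ± 6.3 (SD, n = 2). By fold this region ranked 145 among the peaks of replicate 1 and 53 among those of replicate 2, and its IDR of 0.00871 was lower than at any of the 15 gene ends.

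A second such case was Psmf1, which encodes an inhibitor of the core particle. Its region at chr2:151741265-151741394 was 2864 bp from the nearer end and 25 bp before a listed start, with folds of 8.87 and 15.3 (27 and 47 fragments) and an IDR of 0.0204. Psmc2 also had a further region at an inner start, chr5:21786645-21786795, with folds of 9.64 and 14.2 (26 and 43 fragments) and an IDR of 0.0166. Its fold exceeded that at the gene's end in replicate 2 (14.2 against 6.66). The pileups in that library were 43 (31.1 to 57.9) and 25 fragments (16.2 to 36.9), with overlapping intervals. In replicate 1 the pileups of 26 and 25 fragments differed by less than the counting error. Counting listed starts beside gene ends gave 17 of 51 genes (33.3%) in the combined list, against 7.49% of all genes counted the same way, and 26 (51%) in replicate 2, against 12%.

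Just inside the limit of 1 kb, the region farthest from its gene was that of Psme2, at 413 bp. Just outside it, Psmb1 had a combined region at a distance of 1481 bp, with folds of 7.79 and 16.2, whose replicate 2 summit was 22 bp from an end of Tbp, the TATA-binding protein gene. Psmb10, an inducible beta subunit gene, had a peak of replicate 2 inside its span at 1230 bp from an end, with a fold of 5.18 and 15 fragments. The limit therefore left the counts almost where they were: 15 at 500 bp, against 6.53% of all genes, and 16 at 2 kb, against 7.58%.

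The 9 genes with a peak in replicate 2 alone carried 10 peaks, with folds from 3.97 to 8.74 (median 6.05) and 15 to 31 fragments. The genes bound in both lists had a median fold of 8.20 and a median of 30 fragments in the same library. Psmb1 was the strongest of these, with a fold of 8.74 and 26 fragments, followed by the lid gene Psmd6 with 8.61 and 26 fragments. Both exceeded the median fold of that list. The weakest by fold was the lid gene Psmd11, with 3.97 and 26 fragments over a background of 5.80. The weakest by pileup was Psmd9, with 15 fragments (8.40 to 24.7) and a fold of 5.18. The ATPase gene Psmc5 had a pair of peaks, with folds of 5.96 and 6.15, both nearer to the end of Ftsj3, a gene of ribosome assembly. The other ATPase gene, Psmc3, had a fold of 6.15 and 18 fragments.

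The remaining folds were 5.48 at Psmb4 (31 fragments), 5.72 at the lid gene Psmd8 (18 fragments) and 6.15 at Psmd2, which encodes a scaffold subunit of the base (23 fragments). Of the members with a peak in replicate 2, 62.5% also had a combined region, beside 62.1% of all genes with a peak in that library. Replicate 1 had fewer peaks, so a gene absent from its list is not shown to be unbound there.

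No peak lay within 1 kb of an end in any list at 27 genes. These include 7 alpha genes (Psma1, Psma2, Psma3, Psma4, Psma6, Psma7, Psma8), of which Psma6 has the inner region above, and the beta genes Psmb3, Psmb5 and Psmb6, the latter pair encoding protease subunits. All 4 inducible or tissue-specific beta genes (Psmb8, Psmb9, Psmb10, Psmb11) were among them. So were Psmc6 of the base ring, Psmd1 and the ubiquitin receptor gene Psmd4 of the base, and Psmd3, Psmd12 and Psmd14 of the lid, the last of which encodes the deubiquitinase. The others were Psme2b, Psme4, Psmf1, Psmg2, Psmg4, Psmd5 and Psmd10.

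Summit positions were measured from gene ends and from listed starts. Both libraries had the summit within 100 bp of an end, which need not be the start, at 11 of the 15 genes. The 15 genes were counted because a region lay within 1 kb of an end. The matching share over all combined regions is not given here, so the 11 is a description only. For the 12 of these genes with a listed start, the replicate 2 summits ran from 605 bp before the start (Psme2) to 91 bp after it (Psma5). At Psmg3 they lay 16 and 15 bp before the start, at Psmc3ip 7 and 10 bp before it, and at Psmc4 10 and 9 bp after it. Psmb2, Psmb7 and Psmd7 have no entry in the promoter table, and their summits lay 7 and 18 bp, 3 and 1 bp, and 5 and 2 bp from an end. Counting listed starts alone gave 14 of 43 genes (32.6%) in the combined list, against 7.31% of genes with a listed start.

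**Figure D4:**
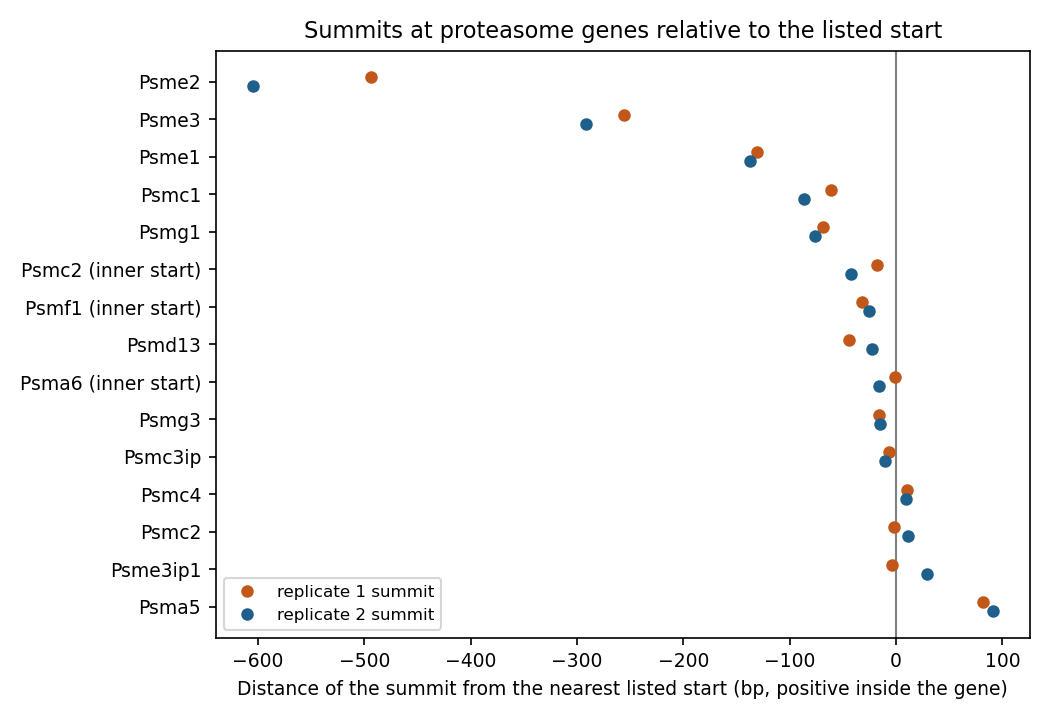
Distance in bp (horizontal axis) of the summits of replicates 1 and 2 from the nearest listed start, positive inside the gene, for combined regions at proteasome genes with a listed start. Most summits lie within 100 bp of the start, and those of Psme2 lie 494 and 605 bp before it.

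Many proteasome genes begin or end beside another gene. Another protein-coding gene's end lay within 1 kb of an end of 21 of the 51 genes (41.2%), against 24.8% of all genes. Among all genes, 15.4% of those with such a neighbour and 4.22% of those without had a combined region. Among proteasome genes the shares were 38.1% (8 of 21) and 23.3% (7 of 30). These shares are descriptions, and whether neighbouring ends bear on the count was not tested. Of the 15 counted genes, 8 had such a neighbour. Giving each region only to the gene with the end nearest its replicate 2 summit left 13 of 51 (25.5%), against 5.54% of all genes. This removed Psme2 and Psme3ip1. The replicate 1 summit at Psmd13 was nearer to an end of Sirt3 (41 bp) than to that of Psmd13 (44 bp).

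Promoter windows from 250 bases before to 50 after the listed start were available for 43 of the 51 genes, in 47 windows. Counting gene ends and listed starts, median GC content was 60.2% in the 18 windows of genes with a combined region and 57.0% in the 22 windows of genes with no peak in replicate 2, beside 56.3% over all 21263 windows. The median number of CpG dinucleotides was 21, 18.5 and 13 in the same order. In both groups of proteasome windows these medians were above those of all windows. Over the 1697 windows of all genes with a combined region they were 60.3% and 22, close to those of the bound proteasome genes. Over the 18521 windows of all genes with no peak in replicate 2 they were 55.7% and 10.

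The letters TTCG, searched on both strands, occurred in 31 of 47 proteasome windows (66.0%), against 49.1% of all windows. They were found in 10 of 18 windows (55.6%) of genes with a combined region and in 17 of 22 (77.3%) of genes with no peak. Over all genes the same shares ran the other way, 67.6% with a combined region and 46.3% with no peak in replicate 2. The 18 windows belonged to only 14 genes, whereas the 22 belonged to 22. Among the 18 were windows of Psma6 and Psme3ip1 at a start far from the region, and overlapping windows of Psme2. None of these held TTCG, so they lowered the share of genes with a combined region. Psmc2 also had a pair of windows, and both held TTCG, which raised that share. Of the 14 replicate 2 summits at proteasome genes whose 101 surrounding bases lay inside a window, 3 (21.4%) held TTCG, against 35.5% of 1286 such summits over all genes and 22.0% of the last 101 bases of all windows. The matches were at Psmc1, Psmc5 and Psmf1, printed here in 30 bases to show what surrounds the match nearest the summit, in capitals.
Psmc1 (chr12:100110059-100110088, plus strand): cttcgtgctcaacTTCGcccgtgaggaagt
Psmc5 (chr11:106256114-106256143, plus strand): cagggcgcatgctTTCGcctccgcgcctgc
Psmf1 (chr2:151741353-151741382, minus strand): tggaaccttctagTTCGgtgcaggtgtttc

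CCGGAAG, searched on both strands, was the most frequent of 6 sequences searched around the summits. It was found at 9 of the 14 proteasome summits (64.3%), against 50.9% of the 1286 summits over all genes and 7.03% of the last 101 bases of all windows. The 9 were at Psma6, Psmc2 (inner start), Psmc3ip (prefix only), Psmd2, Psmd6, Psmd11, Psmd13, Psmg1 and Psmg3. In whole windows it was present in 10 of 18 (55.6%) of genes with a combined region, in 4 of 22 (18.2%) of genes with no peak and in 11.6% of all windows. Over all genes the matching shares were 47.9% of windows with a combined region and 6.89% of windows with no peak in replicate 2. CCGGAAG thus marked peak summits of all genes as well as those of proteasome genes. The match nearest the summit is printed in capitals for 4 of these genes, including the strongest region, Psma6.
Psma6 (chr12:55398812-55398841, plus strand): ccgccggtgctCCGGAAGcagtagccataa
Psmc2 (chr5:21786712-21786741, plus strand): gcgcggagctaCTTCCGGtggggaagagaa
Psmd2 (chr16:20651615-20651644, plus strand): tccgcagggcgCTTCCGGtctggaggacaa
Psmd13 (chr7:140882377-140882406, plus strand): cgcccgcggtgCCGGAAGtgagcgagcact

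The other sequences were GGGCGG (SP and KLF factors), CCAAT (NF-Y), TGACG (the core of CREB and ATF sites) and TGACNNNGC (the antioxidant response element, through which Nfe2l1 is known to raise proteasome genes). Around the 14 summits they were found 5, 1, 5 and 0 times, and the shares over all 1286 summits were 43.0%, 16.4%, 30.1% and 4.67%. TGACG was found at 35.7% of the proteasome summits and in 11.5% of the last 101 bases of all windows. TGACNNNGC stood in 6 of 47 proteasome windows (12.8%), against 13.0% of all windows, at Psmb5, Psmb6, Psmc6, Psmd12, Psme4 and Psmd9, of which only Psmd9 had a peak. A match shows that the letters are present, not that a factor binds there, and summits were not matched on GC content.

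**Figure D5:**
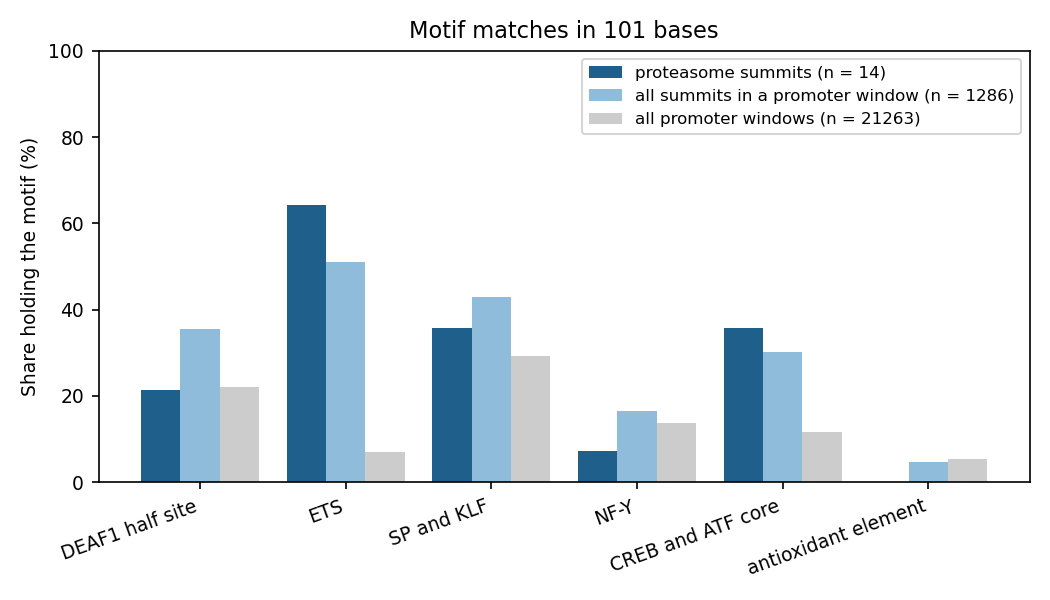
Share (vertical axis, %) of 101-base stretches that hold each of 6 motifs on either strand, at 14 proteasome summits of replicate 2, at all 1286 summits inside promoter windows, and in the last 101 bases of all 21263 windows. The ETS sequence is at 64.3% of proteasome summits and 50.9% of all summits, against 7.03% of all windows.

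Genes that serve the proteasome but lack the prefix were examined as a list of 23, of which 22 were matched in the table and Paaf1 was not. A combined region was found at 4 of the 22 (18.2%), beside the 6.99% of all genes, and a peak of replicate 2 at 5 (22.7%), beside the 11.2% of all genes in that list. Adrm1, a ubiquitin receptor of the base, had folds of 6.07 and 11.5 (16 and 44 fragments). Pomp, the factor that matures the core particle and works with the Psmg proteins, had folds of 12.7 and 8.72 (35 and 33 fragments), the highest mean of these 4, 10.7 ± 2.8 (SD, n = 2). Nfe2l1, the transcription factor that raises proteasome genes when the proteasome is blocked, had folds of 3.89 and 7.83 (20 and 33 fragments) and an IDR of 0.513. Txnl1, a thioredoxin bound to the regulatory particle, had folds of 5.71 and 5.14 (15 and 24 fragments).

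The deubiquitinase gene Uchl5 had a peak of replicate 2 only, with a fold of 5.83 and 17 fragments. Ecpas, a proteasome adaptor gene, had a replicate 2 peak at an inner start, with a fold of 6.15 and 23 fragments. The other genes of the list, among them Usp14, Vcp, Nfe2l2, Akirin2, Sem1, Ddi2, Ngly1 and the shuttle factor genes Ubqln1, Ubqln2 and Ubqln4, had no peak at an end in any list.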

How the data were processed

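Per the submitters' processing notes, FastQC 0.11.8, BWA 0.7.17-r1198 and MACS2 2.1.2 were used and the build was mm10; filters and settings are not given in the sources used here. The deposited peak lists give a fold enrichment (a ratio to the background expected at the summit) and −log10 p and q values per peak. The deposited combined list gives a whole-number score and −log10 IDR for the pair of libraries; its 6 unnamed per-sample columns were not used. Pileup and background were recovered from the deposited fold and p by fold = (pileup + 1)/(background + 1) with a Poisson p. For 100% of peaks 1 pileup fitted, and on simulated summits 100% of 1887 were recovered. Each combined region took the strongest peak of each replicate overlapping it by at least 1 bp. Coordinates are 1-based. Gene spans, symbols and promoter windows came from RefSeq (GRCm38.p6); spans have no strand, so either end counted. Protein-coding genes only were used. Poisson intervals are exact, at the 95% level. Files of the input libraries were not used here. Per the labels, chromatin was fixed with formaldehyde and sonicated, yet the assay is also called native; which holds is not settled.

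Members, lists and roles were chosen with earlier results of these data known, so no set was tested. By rule, members with a peak are given with values and all others by name. The 5 sequences searched beside TTCG were chosen after seeing the files. Python 3.11.15 with scipy 1.17.1 was used. Alternatives covered the IDR score, distance, span, nearest end, listed starts, summit, q (−log10 q of at least 5) and each replicate.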

Additional observations from a re-analysis of the deposited data

How the results depend on the processing

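The IDR score moved the count of proteasome genes with a combined region at a gene end most. It fell from 15 to 5 when a score of 540 was required, where 3.13% of all genes were left. It fell to 0 when 830 was required, where 0.393% of all genes were left. The inner-start region of Psma6, with a score of 857, lay outside this count. Without replicate 1 the count was 24 and without replicate 2 it was 15, so the replicate 2 list decides the larger number. The other alternatives gave 13 to 17 genes in the combined list, where 5.54% to 7.68% of all genes were counted. Replicate 1 gave 13 to 17, where 6.78% to 8.14% of all genes were counted. In replicate 2, 21 to 26 had a peak, where 10.1% to 12.2% of all genes had one. Counts by listed starts alone (14, 14 and 21) are out of 43 genes, the others out of 51. Counting listed starts beside gene ends gave 17, 17 and 26. Median fold over the bound gene ends ran from 6.78 without replicate 2 to 8.20 without replicate 1, and averaging all peaks of a region left it at 7.66. Counting starts beside ends, starts alone in single replicates, leaving out a replicate for the fold, and 1 window per gene for TTCG (29 genes, against 31 windows) were chosen after seeing the data. No paired analysis was possible because the inputs have no values here and the ChIP libraries form 1 group. Summits at the 15 gene ends held 16 to 39 fragments, so these genes cannot be ordered finely by strength.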
